A study of Mus musculus with 371 samples.

Results

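The 7 chemokine receptor genes Cxcr3, Cxcr4, Cxcr6, Ccr2, Ccr4, Ccr6 and Ccr8 were examined in single T cells sorted from B16F10 melanoma, a transplantable tumour line of C57BL/6 mice. They were chosen by name, with earlier results of these data known, and are 7 of the 23362 genes in the deposited expression table. All 7 were present in it under these symbols. The study set T cells of tumours in mice lacking Il27ra, the receptor chain for the cytokine IL-27, beside those of wild-type mice, to describe the genes that IL-27 controls in tumour T cells. All mice were of the C57BL/6 strain and carried the same tumour, and the labels give neither age nor the number of animals.

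Cells were grouped by the genotype and the sort named in their titles. The 4 pools, after cells with fewer than 1000 genes at 1 FPKM were left out, were KO CD8 with 86 of 90 cells, WT CD8 with 90 of 94, KO CD4 with 89 of 93 and WT CD4 with 85 of 94, or 350 cells in all. KO stands for IL27raKO in the labels and WT for wild type. Titles give KO CD8 cells the name bird, WT CD8 cells dog, KO CD4 cells rabbit and WT CD4 cells cat, and each genotype carries the number 3. The name differs between all 4 pools, so genotype and pool cannot be told apart, and every group is 1 sample with no replicate. The CD8 titles end in p1 and the CD4 titles in p2, so the sort cannot be told apart from pool or this ending. The stated protocol speaks of CD8+ cells alone although the titles name CD4 for 2 of the pools. CD4 cells were further divided by Foxp3, the factor that defines regulatory T cells, at 1 FPKM. This gave 35 Foxp3 positive and 54 Foxp3 negative KO cells, and 46 Foxp3 positive and 39 Foxp3 negative WT cells.

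Chemokine receptors are G protein-coupled receptors on the surface of leukocytes. They sense gradients of chemokines, small secreted proteins, and direct the movement of cells into and within tissues. In tumours Cxcr3 is known as a receptor of effector T cells, Cxcr6 as one of tissue-retained T cells, and Ccr4 and Ccr8 as receptors of regulatory T cells. Their signal runs through Gi proteins and is shortened by RGS proteins.

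The promoters of Ccr2, Ccr4 and Ccr8 are shown because these were the receptors whose level was higher by 1 or more, on the scale of log2(FPKM + 1), in Foxp3 positive cells of KO-labelled tumours than in those of WT tumours. The windows are from RefSeq on GRCm38.p6, each of 300 bases around a start listed there and printed along the gene's strand. This listed start need not be the first base of the gene in other annotation. In GENCODE (GRCm38) the Ccr4 gene begins at 114504916, outside its window. The Ccr2 gene begins there at 124101950, within its window and ahead of both the listed start and the GATA match. They lie at chr9:124101933-124102232 on the plus strand for Ccr2, chr9:114496495-114496794 on the minus strand for Ccr4 and chr9:120091883-120092182 on the plus strand for Ccr8. Capitals mark matches, on either strand, to the GATA motif AGATAA, the AP-1 motif TGANTCA and the ETS motif AGGAAG.
Ccr2: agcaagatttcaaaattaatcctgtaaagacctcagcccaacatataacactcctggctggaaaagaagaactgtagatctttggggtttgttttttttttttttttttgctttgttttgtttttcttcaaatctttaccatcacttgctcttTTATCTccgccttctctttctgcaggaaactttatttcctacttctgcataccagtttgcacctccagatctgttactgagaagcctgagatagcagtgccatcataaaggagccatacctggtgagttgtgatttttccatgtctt
Ccr4: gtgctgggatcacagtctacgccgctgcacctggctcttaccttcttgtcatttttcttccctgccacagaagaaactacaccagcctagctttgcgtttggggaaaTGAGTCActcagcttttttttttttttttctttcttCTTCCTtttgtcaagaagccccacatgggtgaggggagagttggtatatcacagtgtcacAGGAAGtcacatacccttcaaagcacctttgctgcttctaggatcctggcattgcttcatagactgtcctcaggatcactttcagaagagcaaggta
Ccr8: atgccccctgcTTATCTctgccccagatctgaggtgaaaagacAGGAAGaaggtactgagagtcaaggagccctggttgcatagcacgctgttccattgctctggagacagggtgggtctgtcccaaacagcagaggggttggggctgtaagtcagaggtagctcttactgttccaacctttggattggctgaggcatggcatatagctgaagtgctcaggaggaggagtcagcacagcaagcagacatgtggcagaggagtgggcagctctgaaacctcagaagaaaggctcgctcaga

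The Ccr2 window held 1 GATA match, which begins at position -97 from the listed start. The Ccr8 window held 1 GATA match at -239 and 1 ETS match at -207. The Ccr4 window held no GATA match, but 1 AP-1 match at -143 and ETS matches at -107 and -47. Of 32851 promoter windows of the same length, 11.2% held the GATA motif, 7.81% the AP-1 motif and 35.4% the ETS motif, so the ETS letters are common. Promoter windows were listed for all 7 genes. The windows of Cxcr4 and Cxcr6 held none of these 3 motifs, and that of Cxcr3 held ETS matches at -229 and -15. The T-box motif GGTGTG, found in 19.05% of windows, and the forkhead motif GTAAACA, found in 3.65%, were in none of the members' windows. The NFAT motif GGAAAA, found in 23.4% of windows, had matches at -191 and 37 in the Ccr2 window and in no other member's. The KLF motif CACCC, found in 57.5%, had 1 match each in the Ccr4, Ccr8 and Cxcr4 windows. Ccr6 had 2 listed windows, 1 with ETS matches at -223 and -219 and 1 with a GATA match at -70. Positions count the listed start of each window as 0, and both strands were searched for all 7 motifs. The motif matches describe letters in these windows and not bound sites.

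Ccr2, Ccr4, Ccr8 and Cxcr6, 4 of the 7 members, lie on chromosome 9 (GRCm38). Ccr2 stands 290.2 kb from Cxcr6. Of the 6744 stretches of 30 bases in Ccr2 transcripts, 3.60% occur in another gene. For the other members at most 0.997% of the stretches were shared. Fragments of Ccr2 could therefore be split with another gene over a small part of the transcript. Cxcr6 lies inside Fyco1, a gene on the opposite strand, with 0 bases of exon in common.

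Sort and label were compared with the transcripts of the cells. Cd4 was found in 0 of 86 KO CD8 cells and 0 of 90 WT CD8 cells, and in 78 of 89 KO CD4 and 74 of 85 WT CD4 cells. Cd8a or Cd8b1 was found in 97.7% of KO CD8 and 92.2% of WT CD8 cells. It was also found in 22.5% of KO CD4 and 25.9% of WT CD4 cells. Cd8a itself was found in 1 KO CD4 and 2 WT CD4 cells. Il27ra transcripts were found in 53.5% of KO CD8 and 51.1% of WT CD8 cells, and in 50.6% of both KO CD4 and WT CD4 cells, so the table gives no check of the genotype labels and KO is used here as the label. Foxp3 positive cells carried the regulatory T cell genes Il2ra in 82.9% (KO) and 82.6% (WT) and Ikzf2 in 74.3% (KO) and 82.6% (WT), whereas in Foxp3 negative cells neither exceeded 11.1%. At least 2 markers of another cell type, mostly of melanoma cells, were found in 23 KO CD8, 26 WT CD8, 17 KO CD4 and 20 WT CD4 cells. Tyr, 1 of the melanoma markers, was found in nearly all cells at a few FPKM (100% of KO Foxp3 positive and 95.7% of WT Foxp3 positive cells, with medians of 5.13 FPKM in KO and 6.335 FPKM in WT among cells with it).

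Genes detected per cell had medians of 1955 in KO CD8 and 2148 in WT CD8 cells, 2152 in KO and 1883.5 in WT Foxp3 positive cells, and 1746.5 in KO and 1547 in WT Foxp3 negative cells. KO-labelled CD4 cells of both kinds thus had more genes detected, and KO-labelled CD8 cells fewer. For the 7 members, the part of this depth gap in the differences was examined by weighting cells to equal bins of genes detected. Member values that this moved across 1 or to the other sign between KO-labelled and WT cells of a kind are given beside the results. Other genes, and the shares over all measured genes, were not weighted. A fragment was worth 0.372 FPKM for the long Ccr2 transcript and 1.81 FPKM for Ccr8, from an estimated median library of 450140 to 496010 fragments. A receptor is called found in a cell at 1 FPKM or above, which is near 1 fragment for most members. Shares carry exact Clopper-Pearson 95% intervals that cover counting error only. Levels are means over cells of log2(FPKM + 1), with SD over cells, and no test between groups was made because each group is 1 sample.

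Over all 350 cells the members fell into abundant, restricted and rare genes. Cxcr3 was found in 41.1% of cells, Cxcr6 in 38.6% and Ccr2 in 37.1%. Ccr8 was found in 22.6%, Cxcr4 in 16.3% and Ccr4 in 11.4% of cells, and Ccr6 in 8 cells. Where found, Cxcr6 had a median of 727 FPKM, Ccr8 486 FPKM and Cxcr3 434 FPKM, against 170 FPKM for Ccr2 and 5.20 FPKM for Cxcr4. Cxcr4 stood apart: 61.4% of the cells with it had less than 10 FPKM, compared with 12.3% for Ccr2, 10% for Ccr4 and at most 4.17% for Cxcr3, Cxcr6 and Ccr8. Values of the other receptors were thus mostly either 0 or well above 10 FPKM.

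**Figure D1:**
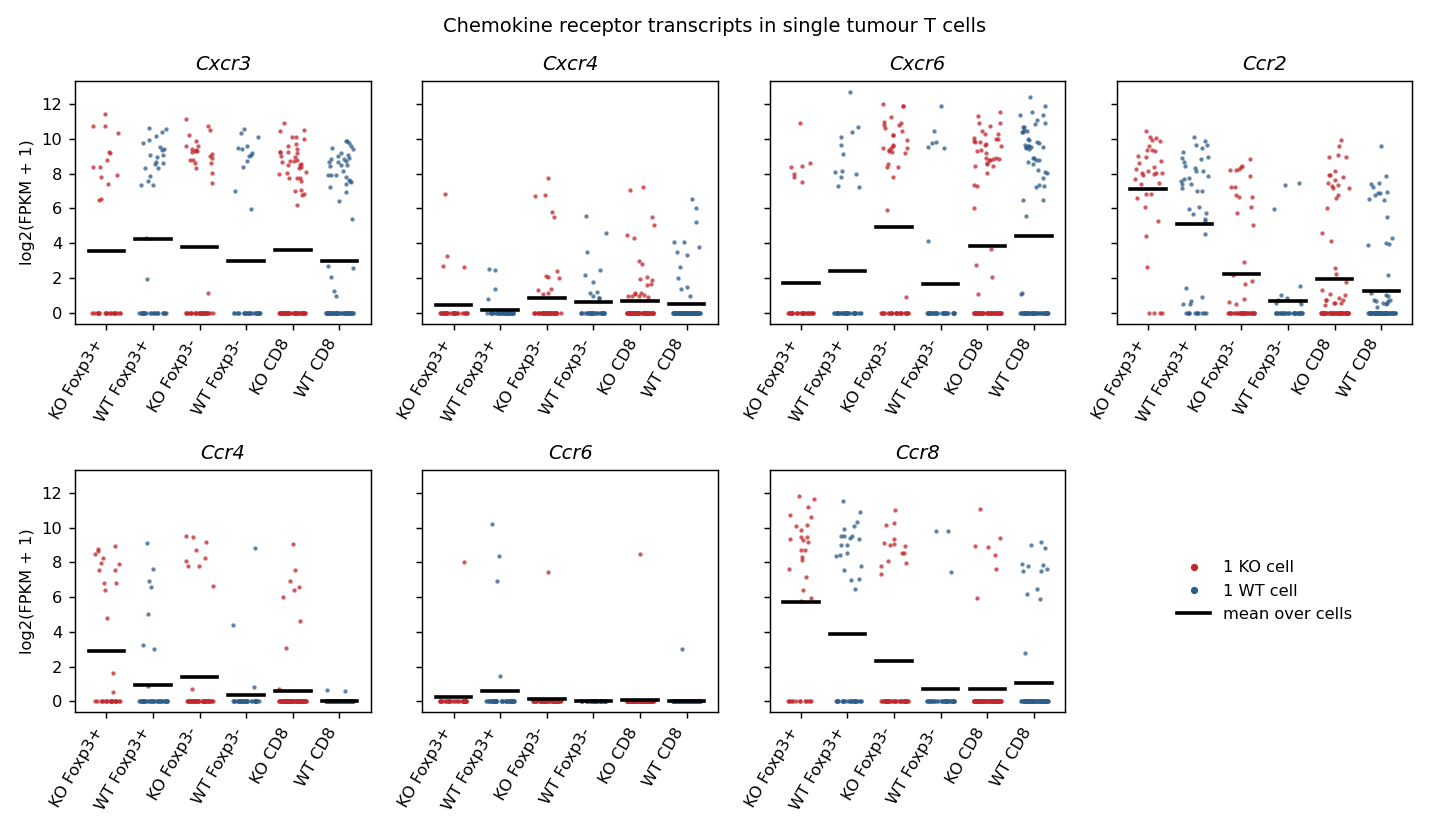
Single-cell levels of the 7 receptors. The y axis is log2(FPKM + 1), each point is 1 cell, black lines are means over cells, and the 6 groups run from KO Foxp3 positive CD4 cells at the left to WT CD8 cells at the right. Most receptors are at 0 or above 6, while most Cxcr4 points above 0 lie below that.

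Cxcr3, the receptor for Cxcl9 and Cxcl10, was found in 33.3 to 50% of cells in all 6 groups. The share was 40% (95% interval 23.9 to 57.9%) in KO and 50% (34.9 to 65.1%) in WT Foxp3 positive cells, 42.6% (29.2 to 56.8%) in KO and 33.3% (19.1 to 50.2%) in WT Foxp3 negative cells, and 41.9% (31.3 to 52.99%) in KO and 38.9% (28.8 to 49.7%) in WT CD8 cells. All these intervals overlap. Its highest cell had 2807 FPKM, in the KO Foxp3 positive group, where the median cell had 0 FPKM. The KO minus WT difference in level was -0.73 in Foxp3 positive, 0.80 in Foxp3 negative and 0.64 in CD8 cells. None reached 1 in size, but in Foxp3 positive cells it did so in 5 of 10 alternatives, among them -1.34 with equal bins of genes detected and -1.49 in cells with at least 2000 genes. In Foxp3 negative cells it did so in 3 of 10, at 1.09 with a pseudocount of 0.1, 1.11 without cells carrying markers of another cell type and 1.68 in cells with at least 2000 genes (16 KO and 6 WT cells), while equal bins gave 0.20.

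Cxcr6, the receptor for Cxcl16, was the member with the largest difference in level between KO-labelled and WT cells among the 3 kinds of cell. It was found in 27 of 54 KO Foxp3 negative cells, or 50% (36.1 to 63.9%), and in 7 of 39 WT Foxp3 negative cells, or 17.9% (7.54 to 33.5%), and these intervals do not overlap. The level averaged 4.94 ± 5.05 in KO and 1.67 ± 3.74 in WT Foxp3 negative cells (SD over cells), a difference of 3.27. In cells with Cxcr6 the median was 796 FPKM in KO and 864 FPKM in WT Foxp3 negative cells. The difference was between 2.19 and 5.28 under 10 alternative settings. Whether intervals overlap was not counted over all measured genes, here or for the members below.

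In the other kinds of cell the difference had the other sign. Cxcr6 was found in 20% (8.44 to 36.9%) of KO and 26.1% (14.3 to 41.1%) of WT Foxp3 positive cells. It was found in 44.2% (33.5 to 55.3%) of KO and 48.9% (38.2 to 59.7%) of WT CD8 cells. KO minus WT was -0.67 in Foxp3 positive and -0.60 in CD8 cells. The value in Foxp3 positive cells passed 1 in size in 3 of 10 alternatives, at -1.15 with equal bins of genes detected, -1.06 in cells with at least 2000 genes and -1.01 with the Foxp3 split by Il2ra and Ikzf2 as well. The value in CD8 cells turned to 0.34 after weighting to equal bins of genes detected and reached -1.17 in cells with at least 2000 genes, so it has no settled direction. KO-labelled Foxp3 negative cells stood with the CD8 cells in their share of Cxcr6, while WT Foxp3 negative cells stood with the Foxp3 positive cells.

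Ccr2, the receptor for Ccl2, Ccl7 and Ccl12, was found in most Foxp3 positive cells. The share was 88.6% (73.3 to 96.8%) in KO and 67.4% (51.98 to 80.5%) in WT Foxp3 positive cells, and the median cell had 261.6 FPKM in KO and 96.2 FPKM in WT. Among Foxp3 negative cells it was 35.2% (22.7 to 49.4%) in KO and 10.3% (2.87 to 24.2%) in WT. Among CD8 cells it was 30.2% (20.8 to 41.1%) in KO and 21.1% (13.2 to 30.99%) in WT. The median cell had 0 FPKM in all 4 of these groups. KO minus WT was 2.00 in Foxp3 positive, 1.54 in Foxp3 negative and 0.68 in CD8 cells. The difference in Foxp3 positive cells was 0.98 when only cells with at least 2000 genes were used (21 KO and 19 WT cells).

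Ccr4, the receptor for Ccl17 and Ccl22, was found in 14 of 35 KO and 7 of 46 WT Foxp3 positive cells, or 40% (23.9 to 57.9%) in KO and 15.2% (6.34 to 28.9%) in WT. It was found in 9 of 54 KO and 2 of 39 WT Foxp3 negative cells. In CD8 cells it was found in 8 of 86 KO cells and 0 of 90 WT cells, which allows a share of up to 3.33%. The share was higher in KO-labelled cells of each kind, with intervals that overlap for CD4 cells and that do not for CD8 cells (4.10 to 17.5% in KO and 0 to 4.02% in WT). The gap in CD8 cells rests on few cells, and 1 of the 8 KO cells had only 7.47 FPKM. At 10 FPKM the KO CD8 share was 8.14%, equal to that of Ccr8 at 1 FPKM in this pool. The exact interval of that share is 3.34 to 16.1%, which overlaps the WT interval. KO minus WT in level was 1.97 in Foxp3 positive, 1.05 in Foxp3 negative and 0.58 in CD8 cells, and only the Foxp3 positive groups reached 20% of cells in either genotype. The difference in Foxp3 negative cells was 0.76 with equal bins of genes detected, 0.67 with a pseudocount of 10 and 0.02 in cells with at least 2000 genes (16 KO and 6 WT cells). In CD8 cells with at least 2000 genes it was 1.05.

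Ccr8, the receptor for Ccl1 and, in mice, Ccl8, was found in 62.9% (44.9 to 78.5%) of KO and 43.5% (28.9 to 58.9%) of WT Foxp3 positive cells. In Foxp3 negative cells it was 25.9% (14.96 to 39.7%) in KO and 7.69% (1.62 to 20.9%) in WT. In CD8 cells it was 8.14% (3.34 to 16.1%) in KO and 14.4% (7.92 to 23.4%) in WT. Its highest cells reached 3571 FPKM in the KO and 2933 FPKM in the WT Foxp3 positive group, and the median cell had 194.9 FPKM in the KO and 0 FPKM in the WT Foxp3 positive group. KO minus WT was 1.81 in Foxp3 positive, 1.62 in Foxp3 negative and -0.35 in CD8 cells. With equal bins of genes detected the value in Foxp3 positive cells was 0.76 and that in CD8 cells was 0.42.

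Cxcr4, the receptor for Cxcl12, and Ccr6, the receptor for Ccl20, were scarce. Cxcr4 was found in 11.4% of KO and 6.52% of WT Foxp3 positive cells, 24.1% of KO and 20.5% of WT Foxp3 negative cells, and 19.8% of KO and 13.3% of WT CD8 cells. At 10 FPKM those shares were 2.86% in KO and 0% in WT Foxp3 positive cells, 9.26% in KO and 7.69% in WT Foxp3 negative cells, and 6.98% in KO and 7.78% in WT CD8 cells. The KO minus WT difference of Cxcr4 was 0.28 in Foxp3 positive, 0.21 in Foxp3 negative and 0.16 in CD8 cells. Ccr6 was found in 1 KO and 4 WT Foxp3 positive cells, 1 KO and 0 WT Foxp3 negative cells, and 1 KO and 1 WT CD8 cell, which are too few to compare.

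**Figure D2:**
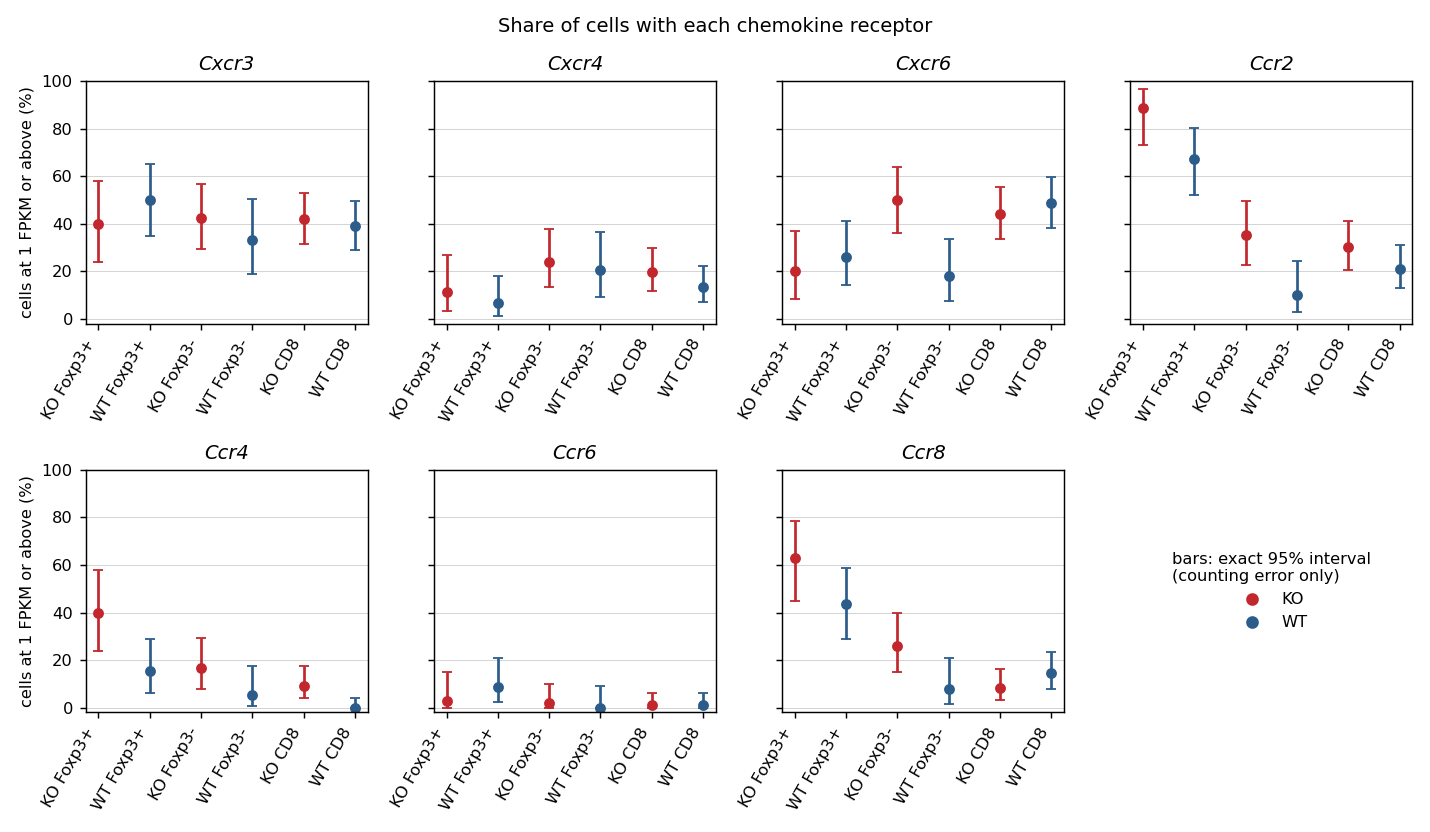
Share of cells with each receptor. The y axis is the percent of cells at 1 FPKM or above, points are shares, bars are exact 95% intervals for counting error only, red is KO and blue is WT. Ccr2, Ccr4 and Ccr8 are highest in KO Foxp3 positive cells, Cxcr6 is at 50% in KO and 17.9% in WT Foxp3 negative cells, and Cxcr3 lies between 33.3 and 50% in the 6 groups.

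The members were counted against all measured genes, those found in at least 20% of cells of either group. Because the members were chosen with earlier results of these data known, the counts are description only. In Foxp3 positive cells 3 of 5 measured members (Ccr2, Ccr4 and Ccr8) were higher by 1 or more in KO-labelled than in WT cells, and 21.5% of all 4894 measured genes were (2.31% were lower and 23.8% differed either way). The median KO minus WT difference was 1.81 over the measured members and 0.42 over all measured genes. In Foxp3 negative cells 3 of 5 measured members (Cxcr6, Ccr2 and Ccr8) were higher by 1 or more, and 13.5% of all measured genes were (3.15% were lower), with a median of 1.54 over the members and 0.21 over all genes. These 3 were measured through KO Foxp3 negative cells alone, with WT shares of 17.9% for Cxcr6, 10.3% for Ccr2 and 7.69% for Ccr8. Ccr4 was likewise measured through KO Foxp3 positive cells alone (40% in KO and 15.2% in WT). The filter thus partly sets these counts and medians of the members. In CD8 cells 0 of 3 measured members reached 1 in either direction, and 13.8% of all measured genes did (0.555% higher and 13.3% lower). The median over all genes there was -0.40, so Cxcr3 at 0.64 and Ccr2 at 0.68 were above the bulk of genes and Cxcr6 at -0.60 was near it.

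In the whole CD4 sort, with the Foxp3 split left out, 4 of 5 measured members (Cxcr6, Ccr2, Ccr4 and Ccr8) were higher by 1 or more in KO-labelled than in WT cells, and 9.91% of all measured genes were. The differences were 1.62 for Cxcr6, 1.06 for Ccr2, 1.33 for Ccr4 and 1.22 for Ccr8. Ccr4 was measured here through KO CD4 cells alone (25.8% in KO and 10.6% in WT). Foxp3 positive cells made up 39.3% of KO CD4 and 54.1% of WT CD4 cells, and the part of this in the whole-sort differences was not tested. With equal bins of genes detected only Cxcr6 and Ccr4 still reached 1 in the whole sort. Without the cells that carried markers of another cell type all 4 still did.

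**Figure D3:**
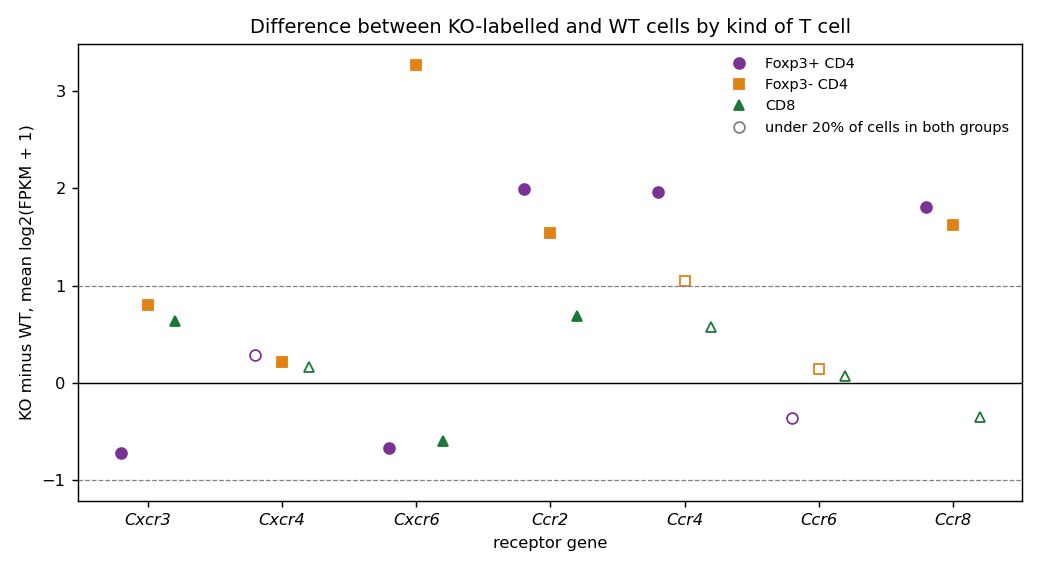
KO minus WT difference of each receptor in 3 kinds of T cell. The y axis is the difference in mean log2(FPKM + 1), circles are Foxp3 positive CD4, squares Foxp3 negative CD4 and triangles CD8 cells, open symbols are genes found in under 20% of cells of both groups, and dashed lines are at 1 and -1. Cxcr6 in Foxp3 negative cells is highest at 3.27, and no CD8 point passes a dashed line.

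Between kinds of cell, Ccr2 and Ccr8 were the members of Foxp3 positive cells in both genotypes. Foxp3 positive minus Foxp3 negative CD4 cells differed by 4.90 (KO) and 4.45 (WT) for Ccr2 and by 3.39 (KO) and 3.20 (WT) for Ccr8. In KO cells Ccr4 was also higher by 1.48 and Cxcr6 was lower by 3.24, while in WT cells Cxcr3 was higher by 1.26 and the Cxcr6 difference was 0.71. Against the whole table, 30% of genes were higher by 1 or more and 2.35% lower in KO (32.4% either way), and 23.9% higher and 4.81% lower in WT (28.7% either way). The value for Cxcr6 thus had a different sign in the 2 genotypes.

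Relative to CD8 cells of the same genotype, Foxp3 positive CD4 cells were higher by 5.20 (KO) and 3.89 (WT) for Ccr2 and by 5.00 (KO) and 2.85 (WT) for Ccr8. For Cxcr6 the difference was -2.11 in KO and -2.04 in WT cells. Ccr2, Ccr8 and Cxcr6 were the 3 members that passed 1 with the same sign in both genotypes, under the main setting and under all 10 alternatives. In both genotypes CD4 and CD8 cells also differ in pool and in the ending of their titles. None of these settings separates that from the kind of cell. Ccr4 was higher by 2.30 in KO and 0.91 in WT cells, and the WT value passed 1 in 2 of 10 alternatives (1.41 with a pseudocount of 0.1 and 1.05 with FPKM rescaled per cell). For Cxcr3 the difference was -0.10 in KO and 1.27 in WT cells. Of all measured genes, 25.7% were higher by 1 or more and 4.87% lower in KO (30.6% either way), against 4.86% higher and 18.5% lower in WT, so Ccr2 and Ccr8 were higher in WT Foxp3 positive cells while most genes past 1 were lower there.

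Set against CD8 cells, Foxp3 negative CD4 cells had a higher level of Cxcr6 in KO and a lower one in WT cells. In KO cells Cxcr6 was higher by 1.12, Ccr8 by 1.62 and Ccr2 by 0.30 than in CD8 cells, where 3.86% of all measured genes were higher by 1 or more and 8.45% lower. In WT cells Cxcr6 was lower by 2.75, Ccr8 by 0.36 and Ccr2 by 0.56, where 0.875% of genes were higher by 1 or more and 35.2% lower. The WT values of Ccr8 and Ccr2 reached 0.43 and 0.08 at their highest among the 10 alternatives, so neither kept its sign in all of them. Cxcr3 (0.17 in KO and 0.01 in WT), Cxcr4 (0.19 in KO and 0.14 in WT) and Ccr4 (0.82 in KO and 0.35 in WT) had the same sign in both genotypes under the main setting. The WT value of Cxcr3 kept its sign in only 6 of 10 alternatives (-0.51 to 0.89). The KO value of Cxcr3 and the WT value of Cxcr4 did so in 9 of 10. No member passed 1 with the same sign in both genotypes. These comparisons share the KO or the WT CD8 cells with those of Foxp3 positive cells. They likewise cannot separate the kind of cell from pool and title ending.

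Receptors were then counted in each cell, out of the 7 members. KO Foxp3 positive cells had a mean of 2.66 ± 1.03 receptors and WT Foxp3 positive cells 2.17 ± 1.34 (SD over cells). Foxp3 negative cells had 1.96 ± 1.41 in KO and 0.949 ± 0.916 in WT. CD8 cells had 1.55 ± 1.34 in KO and 1.38 ± 0.990 in WT. At least 3 receptors were found in 60% (42.1 to 76.1%) of KO and 43.5% (28.9 to 58.9%) of WT Foxp3 positive cells. In Foxp3 negative cells that share was 35.2% (22.7 to 49.4%) in KO and 5.13% (0.627 to 17.3%) in WT, and in CD8 cells 25.6% (16.8 to 36.1%) in KO and 12.2% (6.26 to 20.8%) in WT. The intervals of KO and WT are apart for Foxp3 negative cells and overlap for the other kinds. WT Foxp3 negative cells, with the fewest genes detected, also had the largest share with none of the 7, at 38.5%, against 22.2% of KO Foxp3 negative cells. The part of genes detected in these counts was not tested.

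**Figure D4:**
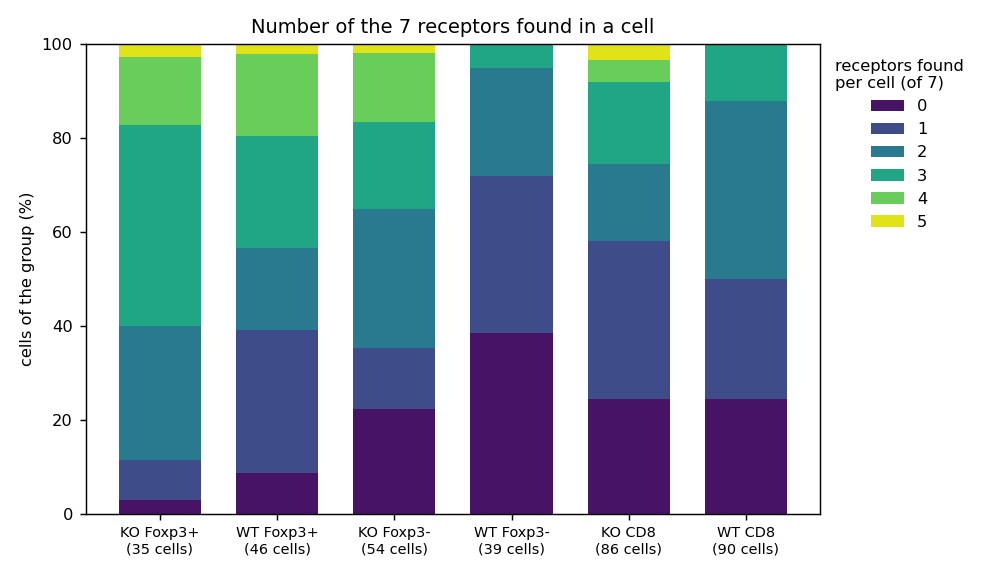
Number of the 7 receptors found in a cell at 1 FPKM or above. Bars are stacked to 100% of the cells in each of the 6 groups, with the number of cells under each bar and the number of receptors by colour. Cells with 3 or more receptors make up 60% of KO and 43.5% of WT Foxp3 positive cells, and 35.2% of KO and 5.13% of WT Foxp3 negative cells.

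Some receptors met in the same cells more often than their own shares would give, and others less often. Ccr8 was found with Cxcr6 in 6 of 7 KO CD8 cells that had Ccr8 (3.09 cells if the 2 were independent) and in 12 of 13 WT CD8 cells (6.36 cells). In the same WT CD8 pool none of the 13 Ccr8 cells had Cxcr3 (5.06 cells if independent), whereas 4 of the 7 in KO CD8 did. Among KO Foxp3 negative cells 17 had both Cxcr3 and Cxcr6 (11.5 if independent), and 15 had both Cxcr6 and Ccr2 (9.50 if independent). Among WT Foxp3 positive cells 10 had both Cxcr3 and Cxcr6 (6 if independent) and 20 both Cxcr3 and Ccr2 (15.5 if independent). These are examples from all pairs counted, and the same pairs were near independence in other groups. Cxcr3 and Cxcr6 met in 17 WT CD8 cells (17.1 if independent). In KO Foxp3 positive cells Cxcr3 and Ccr2 met in 13 (12.4 if independent) and Cxcr6 and Ccr2 in 6 (6.2 if independent).

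Ccr7, the lymph node homing receptor, was set beside the members. Ccr2 and Ccr7 were found together in 2 KO CD8 cells (10.9 if independent) and 4 WT CD8 cells (8.23 if independent). Cxcr6 and Ccr7 met in 8 KO CD8 cells (15.9 if independent) and 13 WT CD8 cells (19.1 if independent). Cxcr3 and Ccr7 met in 8 KO CD8 cells (15.1 if independent) and 9 WT CD8 cells (15.2 if independent). These 3 pairs were thus fewer than independence gives in both CD8 pools, which did not hold for every member. Ccr8 and Ccr7 met in 1 KO CD8 cell (2.93 if independent) and 8 WT CD8 cells (5.63 if independent), and Cxcr4 and Ccr7 in 7 KO CD8 cells (7.12 if independent) and 6 WT CD8 cells (5.20 if independent). Cells of a pool differ in the number of genes detected, and its part in these counts was not tested.

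Ccr7 was found in 8.57% of KO and 8.70% of WT Foxp3 positive cells, 25.9% of KO and 38.5% of WT Foxp3 negative cells, and 41.9% of KO and 43.3% of WT CD8 cells. KO minus WT was 0.06 in Foxp3 positive, -0.94 in Foxp3 negative and 0.15 in CD8 cells. None of these reached 1. Foxp3 positive minus Foxp3 negative cells was -1.58 (KO) and -2.58 (WT), so Ccr7 was lower in Foxp3 positive cells of both genotypes.

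CD8 cells were divided by Pdcd1, the gene of the checkpoint receptor PD-1, at 1 FPKM. Cxcr6 was found in 82.6% (61.2 to 95.05%) of the 23 KO CD8 cells with Pdcd1 and in 30.2% (19.2 to 43.02%) of the 63 without it. In WT CD8 cells it was found in 77.8% (60.8 to 89.9%) of 36 cells with Pdcd1 and 29.6% (17.98 to 43.6%) of 54 without it. The intervals of cells with and without Pdcd1 are apart in both genotypes. Ccr8 followed Pdcd1 as well, at 26.1% (10.2 to 48.4%) of KO CD8 cells with Pdcd1 and 1.59% (0.0402 to 8.53%) of those without it. In WT CD8 cells it was found in 36.1% (20.8 to 53.8%) with Pdcd1 and in 0 of 54 without it, which allows up to 5.56%. All 13 WT CD8 cells with Ccr8 thus had Pdcd1. Genes detected differed between these classes, with medians of 2035 with and 1929 without Pdcd1 in KO, and of 3105.5 with and 2043 without it in WT CD8 cells, and its part in the shares was not tested.

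Ccr2 followed Pdcd1 in the KO pool, with 56.5% (34.5 to 76.8%) of cells with Pdcd1 and 20.6% (11.5 to 32.7%) without it. In WT CD8 cells the shares were 22.2% (10.1 to 39.2%) with and 20.4% (10.6 to 33.5%) without Pdcd1. Ccr2 thus came with Pdcd1 in KO CD8 cells, and in WT CD8 cells the shares with and without it differed by less than their counting error. Whether the 2 genotypes differ in this was not tested. Cxcr3 was found in 52.2% of KO CD8 cells with and 38.1% without Pdcd1, and in 36.1% of WT CD8 cells with and 40.7% without it. A division at 2 of the 4 genes Pdcd1, Havcr2, Lag3 and Tigit gave Cxcr6 in 73.9% of KO CD8 cells with at least 2 of them and 33.3% with fewer, and in 74.4% of WT CD8 cells with at least 2 and 29.4% with fewer.

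**Figure D5:**
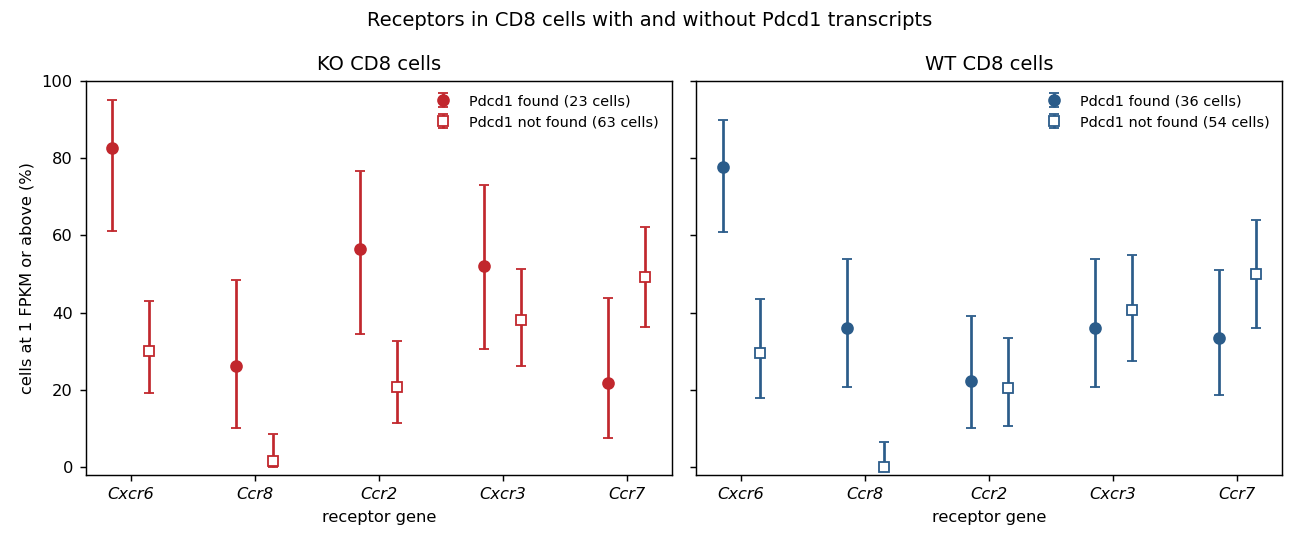
Receptors in CD8 cells with (filled circles) and without (open squares) Pdcd1 transcripts, KO at the left and WT at the right. The y axis is the percent of cells at 1 FPKM or above, and bars are exact 95% intervals for counting error only. Cxcr6 and Ccr8 are higher with Pdcd1 in both genotypes, and Ccr2 is higher with Pdcd1 in KO CD8 cells, at 56.5% against 20.6%.

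CD8 cells were also divided by Tcf7, a transcription factor gene of naive and memory T cells. Ccr8 was found in 0 of 56 KO CD8 cells with Tcf7, which allows up to 5.36%, and in 7 of 30 without it. In WT CD8 cells it was found in 1 of 47 cells with Tcf7 and in 12 of 43 without it. Ccr2 was found in 21.4% of KO CD8 cells with Tcf7 and 46.7% without it, and in 12.8% of WT CD8 cells with Tcf7 and 30.2% without it, with intervals that overlap in both genotypes. Cxcr3 was found in 37.5% of KO CD8 cells with Tcf7 and 50% without it, and in 46.8% of WT CD8 cells with Tcf7 and 30.2% without it. These directions are opposite, but the intervals overlap in both genotypes. Genes detected had medians of 1961 with and 1932.5 without Tcf7 in KO, and of 2053 with and 2763 without it in WT CD8 cells, and their part in these shares was not tested.

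Genes most like each member were ranked by Spearman correlation of log2(FPKM + 1) over all 350 cells, among 3355 genes found in at least 20% of cells. Predicted genes, genes annotated as not protein coding and antigen receptor gene segments were left out of these. Ccr8 was most like Tnfrsf4 (rho 0.53), Tnfrsf9 (0.53) and Capg (0.51), and within the 4 pools these values were between 0.36 and 0.57. Tnfrsf4 and Tnfrsf9 encode the co-stimulatory receptors OX40 and 4-1BB. Ccr2 was most like Foxp3 (0.50), Gzmb (0.42) and Icos (0.42), and Cxcr6 was most like Bhlhe40 (0.47), Sh3bgrl3 (0.40) and Anxa2 (0.38). For Cxcr6 and Bhlhe40 rho was 0.42 in KO CD8, 0.67 in WT CD8, 0.56 in KO CD4 and 0.23 in WT CD4 cells. For Ccr2 and Gzmb, the gene of granzyme B, rho was 0.39 in KO CD8, 0.03 in WT CD8, 0.51 in KO CD4 and 0.67 in WT CD4 cells. Ccr2 and Foxp3 had a rho of 0.17 in KO CD8, 0.58 in KO CD4 and 0.55 in WT CD4 cells, and none in WT CD8 cells. Ccr2 and Icos ranged from 0.08 in WT CD8 to 0.50 in KO CD4 cells. Cxcr6 and Anxa2 had 0.46 in KO CD8, 0.70 in WT CD8, 0.05 in KO CD4 and 0.21 in WT CD4 cells. Cxcr3 had its highest rho, 0.26, with Icos and Hsd11b1, and Ccr4 its highest, 0.28, with Ifi27l2a. For Cxcr4 and for Ccr6 the highest rho with any ranked gene was 0.204. Cells share their pool and their depth in these values, and rho with the number of genes detected was 0.31 for Cxcr6, 0.27 for Ccr8 and at most 0.16 for the other members.

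Ligand genes were nearly absent from these cells. Of the 13 listed ligands of the members, Cxcl11 alone was found in 20% of cells of any group. It was found in 25 of 86 KO and 15 of 90 WT CD8 cells, in 7 of 35 KO and 10 of 46 WT Foxp3 positive cells, and in 8 of 54 KO and 7 of 39 WT Foxp3 negative cells. Its median among cells with it was 1.58 FPKM in KO and 1.68 FPKM in WT CD8 cells, and its highest value in any group was 7.27 FPKM. Ccl1, a ligand of Ccr8, was found in 1 KO CD8, 1 WT CD8 and 1 WT Foxp3 negative cell, there at 6861 FPKM. Ccl2 and Ccl20 were found in 0 of the 350 cells.

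Among genes that carry the receptor signal, 20 of 22 measured transducers were higher in KO than in WT Foxp3 positive cells and 6 were higher by 1 or more, with a median difference of 0.59. Over all 4894 measured genes 3545 were higher, 21.5% were higher by 1 or more and the median was 0.42. The largest among the transducers were Gnai3, a Gi alpha subunit, at 1.80, Tln1, the integrin activator talin, at 1.56, Rassf5 at 1.42 and Fermt3, the integrin activator kindlin-3, at 1.35. Among Foxp3 negative cells 2 of 20 measured transducers were higher by 1 or more and 1 was lower, Cdc42 at 1.53, Gng2 at 1.01 and Elmo1 at -1.32, beside 13.5% of all measured genes higher and 3.15% lower. In CD8 cells 0 of 21 passed 1, beside 13.8% of all measured genes, and 15 of 21 were lower, with a median of -0.37 against -0.40 over all genes. The median of the transducers thus lay near that of all genes in CD8 and Foxp3 positive cells. Differences of transducers, and of the RGS proteins and transcription factors below, were not weighted by genes detected.

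RGS proteins shorten signals of Gi-coupled receptors. Rgs1 was found in 72.2% of KO and 48.7% of WT Foxp3 negative cells, with a KO minus WT difference of 3.22, and in 80% of KO and 69.6% of WT Foxp3 positive cells, with a difference of 1.60. Rgs19 was higher by 1.71 in Foxp3 negative and 1.43 in Foxp3 positive KO cells. In Foxp3 positive cells Rgs2 was also higher, by 1.19, and Rgs3 was lower by 1.16. In all, 2 of 5 measured RGS genes were higher by 1 or more in Foxp3 negative cells, and 3 of 7 higher and 1 lower in Foxp3 positive cells. Over all measured genes 13.5% were higher by 1 or more in Foxp3 negative cells, and 21.5% were higher and 2.31% lower in Foxp3 positive cells. In CD8 cells 1 of 7 passed 1, Rgs16, which was lower by 1.26 in KO cells, where 13.3% of all measured genes were lower by 1 or more.

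Of the 14 listed transcription factors of T cell lineages, 4 of 10 measured were higher by 1 or more and 1 was lower in KO than in WT Foxp3 positive cells, beside 21.5% higher and 2.31% lower among all measured genes. Gata3, the factor of type 2 helper cells, was found in 82.9% of KO and 45.7% of WT Foxp3 positive cells and differed by 2.90. Rora differed by 2.44, Batf by 1.91 and Id2 by 1.10, and Tbx21, the factor T-bet of type 1 helper cells, was lower by 1.04. In Foxp3 negative cells Rora alone, 1 of 6 measured, passed 1, at 1.87, beside 13.5% of all measured genes higher and 3.15% lower. In CD8 cells Gata3 was higher by 1.03 and Id2 lower by 1.10, 2 of 6 measured, beside 13.8% of all measured genes either way. In the whole CD4 sort Foxp3 itself was lower by 1.07 in KO cells.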

How the data were processed

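Single T cells from B16F10 tumours were profiled with the Smart-seq2 protocol and Nextera XT libraries, with 21 cycles of cDNA amplification, per the labels' protocols. The authors deposited 1 table of FPKM per gene and cell, normalized between cells by TMM per the name of the file in the labels and made with Bowtie and RSEM on mm10 per the submitters' processing notes, with versions not given in the sources used here. FPKM divides by transcript length, so levels of different genes can be compared, and TMM scaling leaves cells with different sums.

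Single-cell columns were used, and 4 columns with Population in their names were not. Of 23366 entries, 4 with repeated symbols were left out. Cells with at least 1000 genes at 1 FPKM were kept (350). No 2 cells held identical values. No doublet caller was run. Cells carrying at least 2 markers of another cell type were counted and, as an alternative, left out. The 7 members and all gene lists were chosen with earlier results of these data known. Named genes were all 7 members, Ccr7 and, from each list, at most 4 measured genes past 1 in a comparison by size, with 3 genes per member by Spearman correlation. Some genes that this rule names are not reported here. Trac, Trdc and Tcrg-C1 had no entry under the symbols searched.

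Levels are means of log2(FPKM + 1), which understates differences of low genes, and differences are KO minus WT, Foxp3 positive minus Foxp3 negative, or CD4 minus CD8. Measured genes were at 1 FPKM in at least 20% of cells of either group, and 1 or more in size was counted as past. Each group is 1 pool, so no test was made. Shares carry exact Clopper-Pearson 95% intervals, and a share of 0 the limit that 3 counts allow. Depth was estimated from the steps of low values at annotated transcript lengths (GENCODE, GRCm38): 27.9 to 29.5% of low values lay near a whole fragment, against 15.0 to 15.4% with lengths shuffled, so the estimate is rough. Alternatives were other pseudocounts (0.1 and 10), other minima of genes per cell, rescaling each cell to 1000000 FPKM, equal bins of genes detected (edges 1500, 2000 and 3000), a Foxp3 threshold of 10 FPKM, a receptor threshold of 10 FPKM, no minimum share, and, added after seeing the data, cells with the lineage transcripts of their sort and a Foxp3 split with Il2ra and Ikzf2. Strand of the libraries is not given, so Foxp3 values may include reads of Ccdc22, which overlaps its exons by 590 bases on the opposite strand. Python 3.11.15 with numpy 2.4.6, pandas 2.3.3, scipy 1.17.1 and matplotlib 3.10.9 was used, and the scripts were tested on simulated data.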

Additional observations from a re-analysis of the deposited data

Results flagged for a closer look

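Cxcr6 was singled out because its KO minus WT difference had opposite directions in different kinds of cell. It was 3.27 in Foxp3 negative CD4 cells, -0.67 in Foxp3 positive CD4 cells and -0.60 in CD8 cells. The difference between these kinds of cell was not tested, since each group is 1 pool. The value in CD8 cells was 0.34 with cells weighted to equal bins of genes detected.

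Ccr8 was singled out for the same reason. Its KO minus WT difference was 1.81 in Foxp3 positive CD4 cells, 1.62 in Foxp3 negative CD4 cells and -0.35 in CD8 cells, and the difference between these was not tested. The value in CD8 cells was 0.42 with equal bins of genes detected, so its direction there depends on how cells of unequal depth are weighted.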

How the results depend on the processing

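Among 70 recomputed counts of members past 1, 67 stayed within 1.5 times the main count. The 3 others were the whole CD4 sort, where 4 members (KO minus WT) became 1 (Cxcr6) with a pseudocount of 10 and 2 (Cxcr6 and Ccr4) with equal bins of genes detected, and CD8 cells, where 0 became 1 (Cxcr6, lower in KO by 1.17) in cells with at least 2000 genes. These counts take no account of which members passed or in which direction. With equal bins, Ccr2 and Ccr4 were higher and Cxcr3 and Cxcr6 lower in Foxp3 positive cells (KO minus WT). In the main setting Ccr2, Ccr4 and Ccr8 were higher and none lower. Settings that alter only the Foxp3 split cannot change the values in CD8 cells or in the whole CD4 sort. Of 700 recomputed differences, 24 newly passed 1 and 17 no longer did, and none past 1 changed sign. Cxcr6 in Foxp3 negative cells, Ccr4 in Foxp3 positive cells and Ccr8 in Foxp3 negative cells (KO minus WT) passed 1 in 10 of 10 alternatives. Ccr2 in both kinds of CD4 cell and Ccr8 in Foxp3 positive cells did so in 9 of 10. Ccr2 was 0.98 in Foxp3 positive cells with at least 2000 genes and 0.87 in Foxp3 negative cells with a pseudocount of 10. The cause of these changes was not tested. Of the recomputed shares, 19 moved beyond their interval, 10 of them in cells with at least 2000 genes. Without a minimum share of cells per gene, all 10 background shares were lower, for example 9.10% in Foxp3 positive cells (KO minus WT, either direction). No paired analysis was possible because all pools carry the single number 3, and no replicate could be left out. For the scarce members Cxcr4 and Ccr6, a value of 1 FPKM is near 1 fragment. Where found, most values of Cxcr4 were under 10 FPKM, whereas most of those of Ccr6 were well above it. Whether depth limits the share of cells with either gene was not tested.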

Other observations

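Further receptor genes on the list of 16 others were seen in Foxp3 positive cells. Ccr3, known as a receptor of eosinophils and type 2 helper cells, was found in 8 of 35 KO and 2 of 46 WT Foxp3 positive cells and in none of the Foxp3 negative or CD8 cells of either genotype. Ccr1 was found in 6 of 35 KO and 0 of 46 WT Foxp3 positive cells, in no Foxp3 negative cell and in 3 WT CD8 cells. Ccrl2, an atypical receptor, was found in 17 of 35 KO and 12 of 46 WT Foxp3 positive cells. KO minus WT was 1.59 for Ccr3 and 1.32 for Ccrl2, without weighting by genes detected. Ccr1 and Ccr3 were named after their values were seen.

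Cxcr2, a receptor best known from neutrophils, was found in 91.4% of KO and 89.1% of WT Foxp3 positive cells and in 88.4% of KO and 91.1% of WT CD8 cells. Its median among those cells was 4.645 FPKM in KO and 4.76 FPKM in WT Foxp3 positive cells, and its highest value in any of the 6 groups was 34.7 FPKM. Xcr1 was found in 25.6% of KO and 30% of WT CD8 cells at medians of 1.34 FPKM in KO and 1.89 FPKM in WT. The source of these low values was not tested. They lie far below those of Cxcr3, Cxcr6, Ccr2 and Ccr8 and in the same range as most values of Cxcr4.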
